A study of Mus musculus with 4 samples.

Results

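Sox9, Sox5, Sox6, Runx2, Sp7, Dlx5, Mef2c, Scx and Twist1 are 9 transcription factors of the skeleton, taken by symbol from the 31053 genes counted in bone tissue of control (Ctrl) mice and of mice under hindlimb unloading (HLU). All 9 were in the table. They were followed in 32217 cell barcodes of 4 libraries that held 1000 to 40000 unique molecular identifiers (UMIs, 1 per captured transcript molecule) and at most 10% mitochondrial UMIs. Of these barcodes, 6663 lay in clusters named as osteochondral, that is, as chondrocyte-like, mesenchymal stromal-like or connective tissue-like.

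All groups were wild-type C57BL/6J mice. HLU mice were suspended by the tail for 28 days so that the hind legs bore no weight, and Ctrl mice were kept alike without suspension. The marrow was washed out of tibiae and femurs, the bones were digested, and each of 2 Ctrl and 2 HLU mice gave 1 library of single cells in droplets (10x Genomics 3′ kit, version 3.1). The age of the mice is given differently in the study's methods and in the series description and is not settled here.

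SOX9 is the factor that commits mesenchymal cells to cartilage, and SOX5 and SOX6, 2 SOX proteins without an activation domain of their own, bind beside it at the enhancers of cartilage matrix genes such as Col2a1 and Acan. RUNX2 and its downstream zinc finger protein SP7 (osterix) set osteoblast fate and also drive the late, hypertrophic stage of chondrocytes, where the homeobox protein DLX5 and the MADS box protein MEF2C act with RUNX2. Scleraxis (SCX) marks tendon and ligament progenitors, and TWIST1 is a mesenchymal bHLH protein that holds RUNX2 back. RUNX2, MEF2C and SOX6 are also known from blood cells, where MEF2C is used in lymphoid cells and megakaryocytes and SOX6 in red cell precursors.

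The promoters of 3 of the 9 are shown, and the motif marked in each was picked for that gene. Sox6 and Mef2c also had windows, which are not shown. Twist1 was held almost wholly by osteochondral cells in Ctrl, Sox5 likewise, and Runx2 by osteochondral cells and neutrophils together. The sequences are RefSeq windows on GRCm38.p6 from 250 bases before to 50 bases after a gene's start, and 5 of the 9 genes were in the table of windows. The Runx2 window lies at chr17:44814578-44814877 on the minus strand, with matches to the RUNX core (TGTGGT on one strand, ACCACA on the other) in capitals. The Twist1 window lies at chr12:33957421-33957720 on the plus strand, with a GC box (GGGCGG or CCGCCC) in capitals. The Sox5 window lies at chr6:143947057-143947356 on the minus strand, with a SOX core match (ACAATG or CATTGT) in capitals. It is at a start inside the gene, whose span in GENCODE begins at 144781977 on this strand. Which start the cells used was not tested.
Runx2: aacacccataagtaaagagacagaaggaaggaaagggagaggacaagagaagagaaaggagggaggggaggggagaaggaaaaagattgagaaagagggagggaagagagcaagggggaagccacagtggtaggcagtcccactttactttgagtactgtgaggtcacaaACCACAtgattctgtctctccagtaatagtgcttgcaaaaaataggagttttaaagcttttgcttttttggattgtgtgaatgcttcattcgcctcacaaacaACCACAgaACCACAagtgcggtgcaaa
Twist1: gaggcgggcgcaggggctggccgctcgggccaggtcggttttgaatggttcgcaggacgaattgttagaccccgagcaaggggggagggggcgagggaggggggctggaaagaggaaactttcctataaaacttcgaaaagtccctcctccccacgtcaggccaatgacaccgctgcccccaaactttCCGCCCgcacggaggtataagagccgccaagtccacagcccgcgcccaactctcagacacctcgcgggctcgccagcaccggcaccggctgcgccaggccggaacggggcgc
Sox5: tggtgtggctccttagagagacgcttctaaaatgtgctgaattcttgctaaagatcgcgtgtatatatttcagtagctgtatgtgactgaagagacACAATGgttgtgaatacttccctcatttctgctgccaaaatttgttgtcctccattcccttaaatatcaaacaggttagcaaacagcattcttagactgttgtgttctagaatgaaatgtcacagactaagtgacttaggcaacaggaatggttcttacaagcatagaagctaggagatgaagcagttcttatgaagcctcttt
The Runx2 window held 3 RUNX core matches, a number reached by 0.183% of 32851 windows, while at least 1 such match was found in 16.8%. Its 2 E-boxes (CANNTG, the letters bound by bHLH proteins such as TWIST1, present in 72.3% of windows) each share bases with a RUNX match. The Twist1 window had a GC content of 66% beside a median of 52.7% over all windows, 1 GC box (35.7% of windows hold one) and 0 E-boxes. The Sox5 window had a GC content of 39.7% and 1 match to ACAATG (12.6% of windows) but 0 to ACAAAG (18.7% of windows). These are matches of letters only.

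The 4 libraries differed in depth and in makeup. Between 7340 and 9485 barcodes passed per library, with 45347595 to 87604282 UMIs in all and a median of 3799 to 6294.5 per barcode. Of 32 clusters, 28 were named and 4 were not. Most barcodes of HLU replicate 2 formed clusters of their own, among them 2699 of 2726 barcodes of a cluster of mature neutrophils, so results are also given without that library. Pairs of libraries shared 13 to 21 barcodes (0.177% to 0.275% of the smaller library), and 0 of the 52 and 0 of the 146 osteochondral barcodes of HLU replicates 1 and 2 had also passed in a Ctrl library.

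Osteochondral barcodes made up 52.3% (3836 barcodes) of Ctrl replicate 1 and 34.4% (2629) of Ctrl replicate 2, against 0.670% (52) of HLU replicate 1 and 1.54% (146) of HLU replicate 2. The Ctrl mean of 43.3% ± 12.6 stood against an HLU mean of 1.1% ± 0.614 (± SD of 2 libraries), and the lowest Ctrl share was 22.4 times the highest HLU share. With so few libraries the exact permutation test, taken on both sides, cannot go below its value here (p = 0.333). A share of barcodes is a share of the cells that were released and captured.

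The osteochondral population was made up of 4 clusters. The chondrocyte-like cluster led by Col10a1, Cytl1 and Smoc2 held 1698, 1242, 0 and 56 barcodes of Ctrl replicates 1 and 2 and HLU replicates 1 and 2. The chondrocyte-like cluster led by Col9a1, Fxyd2 and Col11a2 held 361, 456, 41 and 42. A connective tissue-like cluster led by Myoc, Apod and Aspn held 1094, 309, 2 and 22. The heat shock genes Hspa1a, Hspa1b and Hspb1 and the bone matrix gene Ibsp were also among its leading genes. A mesenchymal stromal-like cluster led by Npy, Il1rl1 and Col3a1 held 683, 622, 9 and 26. No cluster met the markers of osteoblasts. In HLU replicate 1, 41 of the 52 osteochondral barcodes thus came from the Col9a1 cluster alone. The 9 factors were left out of the clustering, but they share cells with the genes that made the clusters, so levels between clusters are described and not tested.

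Summed over all barcodes, 7 of the 9 factors were lower in both HLU libraries than in both Ctrl libraries, a pattern seen in 35.2% of the 15385 genes tested. Of them, 5 passed the test (edgeR quasi-likelihood test, Benjamini-Hochberg adjusted p under 0.05), beside 17.1% of all genes called lower. These 5 were Sox9, Sox5, Twist1, Dlx5 and Sp7, each with 89.4% or more of its Ctrl UMIs in osteochondral barcodes. The median log2 fold change of the 9 was -3.97, against 0.04 over all genes. In such sums, fewer cells of a type and less RNA per cell cannot be told apart.

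Sox9 (ENSMUSG00000000567, mm10 chr11:112782224-112787760, plus strand) was at 328 and 367 CPM (UMIs of the gene scaled to a common library total) in Ctrl replicates 1 and 2 and at 6.37 and 7.88 CPM in HLU replicates 1 and 2. These came from 18436, 21566, 289 and 690 UMIs. The groups lay far apart, with the lower Ctrl library 41.6 times the higher HLU library. Sox9 fell by 5.52 on the log2 scale (SE 0.35, adjusted p = 0.00326).

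Sox5 (ENSMUSG00000041540, chr6:143828425-144781977, minus strand), its partner at cartilage enhancers, was at 109, 101, 1.90 and 4.63 CPM in Ctrl replicates 1 and 2 and HLU replicates 1 and 2, and fell by 4.90 (SE 0.57, adjusted p = 0.00617). Twist1 (ENSMUSG00000035799, chr12:33957671-33959829, plus strand), the bHLH inhibitor of RUNX2, was at 43.4, 28.2, 1.39 and 0.468 CPM in the same order and fell by 5.26 (SE 0.60, adjusted p = 0.00601). In both genes every HLU value lay more than 20 times below every Ctrl value. The homeobox gene Dlx5 (ENSMUSG00000029755, chr6:6877805-6882085, minus strand) was at 15.5, 12.7, 0.948 and 0.308 CPM and fell by 4.49 (SE 0.58, adjusted p = 0.00801).

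Sp7 (ENSMUSG00000060284, chr15:102356606-102367182, minus strand), the osteoblast factor downstream of RUNX2, was at 4.44, 6.33, 0.617 and 0.0913 CPM, the last from 8 UMIs, and fell by 3.97 (SE 0.86, adjusted p = 0.0304). Its call rested on both Ctrl libraries and was lost without either. The log2 fold change was then -4.18 without Ctrl replicate 1 and -3.68 without Ctrl replicate 2. Scx (ENSMUSG00000034161, chr15:76457452-76459458, plus strand), the tendon factor, gave 186, 61, 20 and 8 UMIs (3.30, 1.04, 0.441 and 0.0913 CPM). Its groups did not overlap, but with an HLU to Ctrl difference of -3.06 on the log2 scale (SE 0.94) it missed the threshold (adjusted p = 0.0727). It was called by DESeq2 (adjusted p = 0.00427). By edgeR it was called without a filter on low counts (adjusted p = 0.0324) and with the replicate number as a block (adjusted p = 0.00871). The replicate numbers were taken as no pairing, as given below. Scx was not called by edgeR when scaled by DESeq2 size factors (adjusted p = 0.0729) or by library totals (adjusted p = 0.0773). It also did not pass with likely doublets removed (adjusted p = 0.0828) or with barcodes above the haemoglobin limit left out (adjusted p = 0.0709). With 1 library left out its log2 fold change ranged from -4.33 to -1.97.

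The other 3 factors had levels in blood cells as well. Sox6 (ENSMUSG00000051910, chr7:115470872-116038796, minus strand) was at 20.2 and 12.2 CPM in Ctrl and at 0.948 and 7.40 CPM in HLU. Both HLU values were below both Ctrl values, but HLU replicate 2 came close to them, and the difference of -1.82 on the log2 scale (SE 0.95) did not pass (adjusted p = 0.223). Of the 648 Sox6 UMIs of HLU replicate 2, 560 (86.4%) lay in erythroid cells, of which this library held 430 barcodes, against 8, 13 and 56 in Ctrl replicates 1 and 2 and HLU replicate 1. Without HLU replicate 2 the log2 fold change was -4.09, from 1 HLU library. With barcodes of at most 0.2% haemoglobin UMIs, the limit of the study's methods, it was -4.44 (edgeR adjusted p = 0.00708). Sox6 was thus called lower when barcodes above the haemoglobin limit were left out.

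Runx2 (ENSMUSG00000039153, chr17:44495987-44814797, minus strand) was at 20.2 and 26.5 CPM in Ctrl and at 30.8 and 9.60 CPM in HLU. HLU replicate 1 was above and HLU replicate 2 below both Ctrl libraries, and the log2 fold change was -0.17 (SE 0.53, adjusted p = 0.840). Without HLU replicate 1 it was -1.06 and without HLU replicate 2 it was 0.40, each from 1 HLU library. Mef2c (ENSMUSG00000005583, chr13:83504034-83667080, plus strand) was at 36.6, 41.5, 58.6 and 31.3 CPM, with overlapping groups (log2 fold change 0.26, SE 0.33, adjusted p = 0.614).

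**Figure D1:**
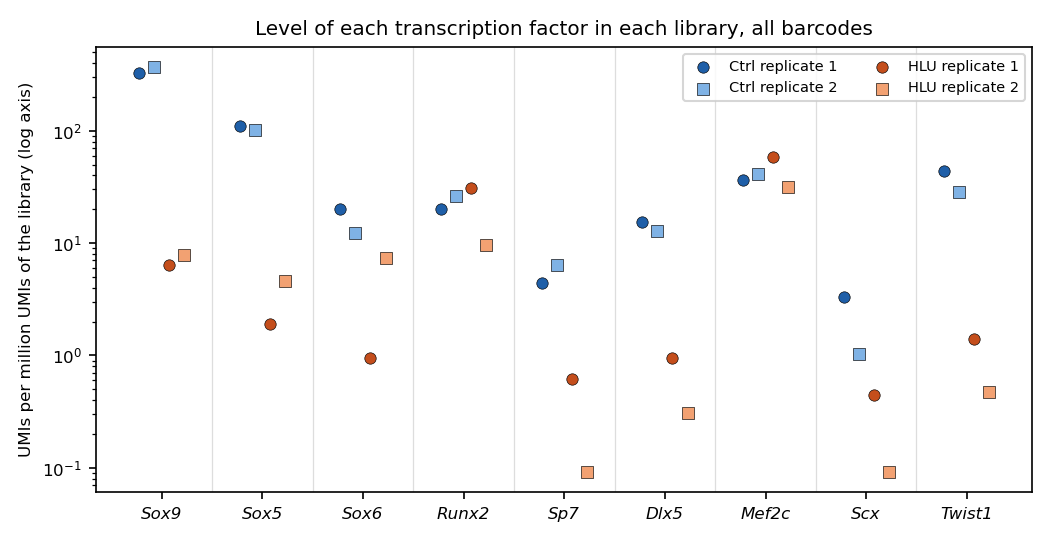
Each point is the level of 1 transcription factor in 1 library, in CPM over all its barcodes, on a log axis, for 2 Ctrl (blue) and 2 HLU (orange) libraries. Sox9, Sox5, Dlx5 and Twist1 lie far lower in both HLU libraries, Runx2 and Mef2c overlap between the groups, and Sox6 in HLU replicate 2 (7.40 CPM) lies near the Ctrl values.

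The cells that held these UMIs differed among the 9 factors. In Ctrl replicates 1 and 2, osteochondral barcodes held 97.3% and 96.3% of Sox9 UMIs, 95.1% and 90.2% of Sox5, 96.1% and 96.5% of Sox6, 97.6% and 93.5% of Sp7, 96.2% and 89.4% of Dlx5, 87.6% and 85.2% of Scx and 96.6% and 91.4% of Twist1. By contrast, they held 59.5% and 53.0% of Runx2 and 64.6% and 38.9% of Mef2c. In HLU, 91.3% and 92.9% of the remaining Sox9 UMIs and 80.2% and 73.6% of the Sox5 UMIs lay in the few osteochondral barcodes. The shares were 75% and 100% for Sp7, from 28 and 8 UMIs, and 65.1% and 51.2% for Twist1. They were 39.5% and 63.0% for Dlx5, 20.9% and 8.18% for Sox6 and 5% and 12.5% for Scx.

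For Runx2 only 5.36% and 4.64% of the HLU UMIs lay there. Mature neutrophils held 32.5% and 18.0% of them, immature neutrophils 16.7% and 23.5% and neutrophil progenitors 16.7% and 19.0%. For Mef2c the osteochondral barcodes of HLU held 2.15% and 1.82%, whereas B cells held 54.9% and 30.6% and megakaryocytes 16.8% and 21.2%. Library sums of Runx2 and Mef2c in HLU were thus mostly sums over blood cells. Outside the osteochondral barcodes, Runx2 was at 22.8 and 25.3 CPM in Ctrl and 29.8 and 9.34 CPM in HLU, and Mef2c at 36, 51.6, 58.5 and 31.4 CPM.

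**Figure D2:**
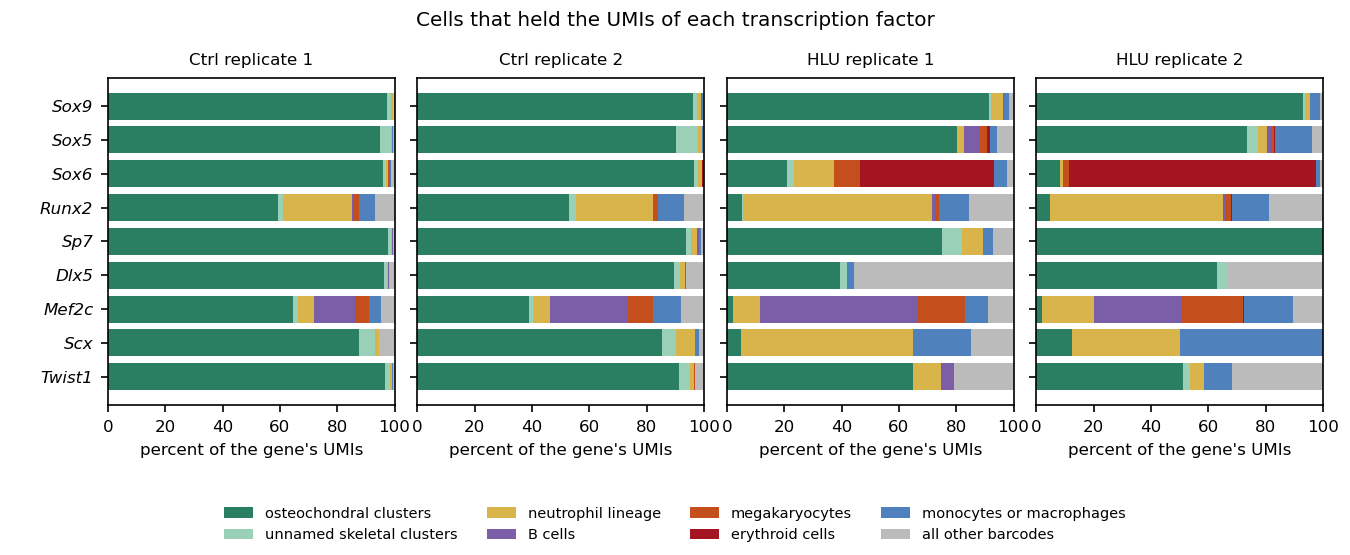
Each bar splits the UMIs of 1 transcription factor in 1 library by the cells that held them, as percent of the gene's UMIs. Osteochondral clusters held 97.3% and 96.3% of Sox9 UMIs in Ctrl and 91.3% and 92.9% in HLU, while erythroid cells held 86.4% of the Sox6 UMIs of HLU replicate 2.

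In Ctrl osteochondral cells, Sox9 and Sox5 were the most widely detected of the 9. At least 1 UMI of Sox9 was found in 64.2% and 75.9% of the osteochondral barcodes of Ctrl replicates 1 and 2, of Sox5 in 54.7% and 64.4%, of Twist1 in 33.9% and 33.7%, of Mef2c in 20.1% and 21.4% and of Sox6 in 20.8% and 19.3%. Dlx5 was detected in 14% and 15.5%, Runx2 in 11.1% and 16.5%, Sp7 in 4.64% and 8.03% and Scx in 3.13% and 1.64%. The median barcode held 8163.5 and 10491 UMIs. A barcode held on average 2.27 and 2.56 of the 9 factors, at most 7, and 9.15% and 5.44% of barcodes held none of them.

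Sox9 made up 58.8% and 66.6% of the UMIs of all 9 factors in these cells, and single barcodes held up to 110 and 152 Sox9 UMIs. These counts come from transcript ends and do not grow with transcript length. For Sox5 the highest barcodes held 19 and 28 UMIs, and for Sp7 6 and 9.

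Cells that should lack a gene give a background for these shares. In Ctrl mature neutrophils, blood cells with no known use of Sox9, 5.4% and 6.4% of barcodes held a Sox9 UMI at median depths of 1924 and 2455 UMIs. The Sox9 level there was 4.85% and 3.42% of the osteochondral level, that of Sox5 3.10% and 2.81% and that of Twist1 3.30% and 4.26%. The cartilage matrix transcripts Col2a1, Acan, Comp and Hapln1 stood at 3.33% to 4.56% in Ctrl replicate 1 and at 3.22% to 3.97% in Ctrl replicate 2. The source of these UMIs was not tested. In HLU mature neutrophils Sox9 was at 0.0429% and 0.0458% of the osteochondral level, from only 1 and 2 UMIs. Runx2 was not lower in neutrophils: at 50.4 and 49.2 CPM in Ctrl mature neutrophils it was above its own level in osteochondral cells (18.8 and 27.6 CPM), and at 5.46 and 1.33 CPM in B cells it was low.

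Thinned to 2000 UMIs per barcode, which makes depths equal and leaves 3659 and 2574 Ctrl and 51 and 135 HLU barcodes, Sox9 was detected in 42.3% and 50.6% of Ctrl and 35.8% and 39.3% of HLU osteochondral barcodes. Without thinning the HLU values were 67.3% and 65.8%. Twist1 was detected in 12.9% and 9.69% of thinned Ctrl barcodes and 7.06% and 2.62% of thinned HLU barcodes, and Sox5 in 24.7%, 26.8%, 13.7% and 25.5%. The mean number of factors per thinned barcode was 1.03 and 1.09 in Ctrl and 1.04 and 0.878 in HLU.

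In detection over all osteochondral barcodes, Runx2 set HLU replicate 1 apart from the other 3 libraries. Of its 52 osteochondral barcodes, 65.4% held a Runx2 UMI, against 15.8% in HLU replicate 2 and 11.1% and 16.5% in Ctrl. After thinning the shares were 19.2%, 3.66%, 3.42% and 4.58% in the same order. Without thinning, Sp7 was likewise detected in 28.8% of the barcodes of HLU replicate 1 and in 4.11% of those of HLU replicate 2. Mef2c was detected in 50% and 20.5%. These barcodes held a median of 15855.5 UMIs in HLU replicate 1 and 10419.5 in HLU replicate 2, against 8163.5 and 10491 in Ctrl. After thinning, Sp7 was detected in 9.94% and 0.665% of HLU barcodes. In HLU replicate 1 the osteochondral barcodes came mostly from the Col9a1 cluster, as given above, and within that cluster Runx2 was detected in 61.0% of barcodes of HLU replicate 1, 31.0% of HLU replicate 2 and 45.7% and 46.5% of Ctrl. In the Npy cluster Runx2 was at 114 and 65.1 CPM in HLU, from 9 and 26 barcodes, against 16.2 and 16.4 CPM in Ctrl. The Myoc cluster went the other way, with 0 and 18.8 CPM in HLU, from 2 and 22 barcodes, against 24.5 and 54.0 in Ctrl. In the Col10a1 cluster HLU replicate 2 was at 0 CPM, against 5.69 and 9.33 in Ctrl. These differences by cluster were not tested.

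The 4 osteochondral clusters differed in their factors in Ctrl. Sox9, the cartilage regulator, was at 724 and 875 CPM in the Col10a1 cluster, 530 and 1052 in the Col9a1 cluster, 355 and 334 in the Myoc cluster and 132 and 149 in the Npy cluster. The first 2 clusters overlapped, and both lay above the other 2 in both libraries. Sox5 was at 221 and 237 CPM in the Col10a1 cluster, above the Col9a1 (145 and 126), Npy (104 and 140) and Myoc (88.4 and 129) clusters, which overlapped one another. Sox6 was at 43.3 and 28.4 CPM in the Col10a1 cluster and 30.4 and 25.5 CPM in the Col9a1 cluster, with overlapping values, then at 15.2 and 23.1 CPM in the Myoc cluster and 14.5 and 12.1 CPM in the Npy cluster.

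Runx2 and Sp7, the osteoblast factors, had their highest osteochondral levels in the Col9a1 cluster, which held 304 of 676 and 471 of 824 osteochondral Runx2 UMIs and 131 of 244 and 280 of 348 Sp7 UMIs of Ctrl replicates 1 and 2. Runx2 was there at 64.2 and 67.4 CPM, against 5.69 and 9.33 CPM in the Col10a1 cluster, 24.5 and 54.0 in the Myoc cluster and 16.2 and 16.4 in the Npy cluster. Sp7 was at 27.7 and 40.1 CPM in the Col9a1 cluster and at 2.99 and 2.33, 8.61 and 11 and 1.79 and 2.09 CPM in the Col10a1, Myoc and Npy clusters. The replicates of the Col9a1 cluster lay above those of every other osteochondral cluster for both genes. Dlx5 did not separate the clusters in this way, with 26.8 and 29.9 CPM in the Col9a1 cluster, 26.4 and 25.1 in the Col10a1 cluster and 28.6 and 21.5 in the Myoc cluster, but only 12.2 and 11.1 in the Npy cluster.

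The Myoc cluster, next after the Col9a1 cluster for Runx2 and Sp7, had the highest levels of the tendon factor Scx and of Twist1. Scx was at 17.4 and 11 CPM there and between 0.286 and 2.69 CPM in the other 3 clusters. Twist1 was at 170 and 135 CPM in the Myoc cluster and at 78.5 and 85.0 CPM in the Npy cluster, above the chondrocyte-like clusters (27.3 to 35.9 CPM). Mef2c was at 56.2 and 74.4 CPM in the Myoc cluster and at 54.3 and 32.4 CPM in the Col9a1 cluster.

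An unnamed cluster of skeletal cells led by Clic5, Col22a1 and Sparcl1 (116 and 70 Ctrl barcodes) had Sox5 at 128 and 317 CPM, below the Col10a1 cluster in Ctrl replicate 1 and above it in Ctrl replicate 2, with Sox9 at 101 and 36.7 CPM and Sox6 at 3.03 and 1.53 CPM. Pericyte or smooth muscle cells had Dlx5 at 32.0 and 60.6 CPM, from 12 and 26 UMIs, above every osteochondral cluster. Among blood cells, plasmacytoid dendritic cells had the highest Mef2c (480 and 594 CPM in Ctrl) and Runx2 (196 and 163 CPM, from 20 and 23 UMIs). B cells (397 and 441 CPM) and megakaryocytes (372 and 397 CPM) followed for Mef2c, with the lower B cell and the higher megakaryocyte value both at 397 CPM.

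**Figure D3:**
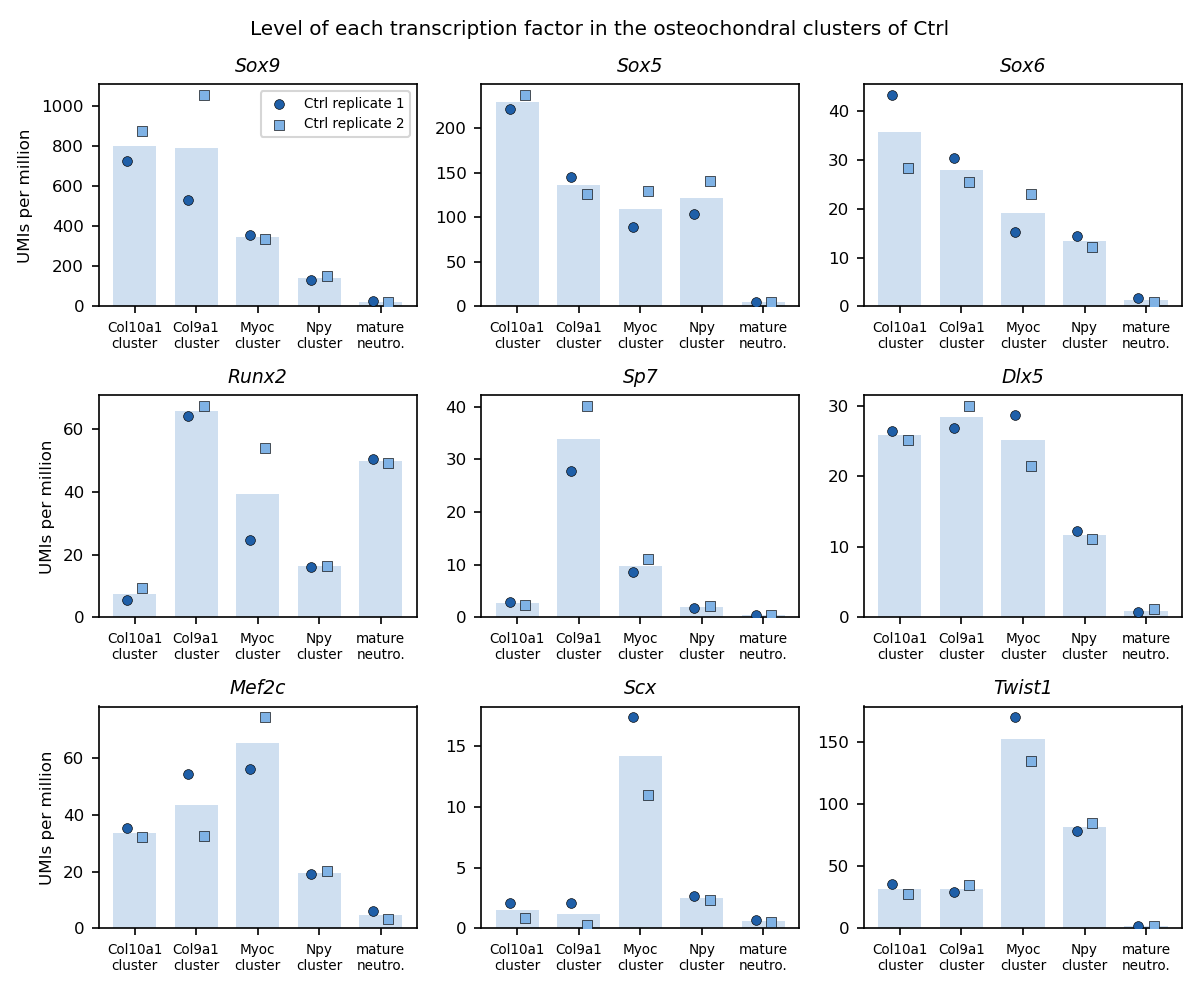
Bars give the mean and points the 2 Ctrl libraries for each transcription factor, in CPM over the UMIs of the cluster, in the 4 osteochondral clusters (named by a leading gene) and in mature neutrophils (neutro.). Runx2 (64.2 and 67.4) and Sp7 (27.7 and 40.1) stand highest in the Col9a1 cluster, and Scx and Twist1 in the Myoc cluster.

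Genes with the most similar pattern were named by the Pearson correlation of log2(CPM + 1) over 22 points, 11 cell classes in both Ctrl libraries, which share libraries and depth. They are descriptions of these points. Sox9 was most like Kank1, Hspg2 (the proteoglycan perlecan) and Cdo1, Sox5 like Cpne8, Cd109 and Prelp, and Twist1 like Col12a1, Mxra8 and Igfbp7, with r between 0.959 and 0.975. Dlx5 was most like Pdzrn3, Tgfb1i1 and Ehd2, Scx like Ptn, Igfbp3 and Cpxm2, and Sox6 like Fap, Psd3 and Creb5. Mef2c was most like Txndc11, Hnrnpa1 and Swap70, and Sp7, itself under 10 CPM in at least 1 Ctrl library of every class, like Gm17501, Rcan1 and Efna1. Runx2 had the weakest likeness, to Tlcd2 (r = 0.80), Macrod2 (0.69) and Csgalnact2 (0.68).

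Within Ctrl osteochondral cells, Runx2 and Sp7 shared barcodes most often relative to expectation. Co-detection was read as the number of barcodes with both genes, divided by the number expected if detection were independent among barcodes of like depth (10 equal parts by UMI total). Runx2 and Sp7 were found together in 65 and 115 barcodes of Ctrl replicates 1 and 2, 2.64 and 2.23 times the expectation. Of the barcodes with Sp7, 36.5% and 54.5% also held Runx2, whereas 15.3% and 26.4% of those with Runx2 held Sp7. Over the 36 pairs the median ratio was 1.07 and 1.06.

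A further 3 pairs exceeded 1.2 times the expectation in both libraries. Sp7 and Dlx5 shared 43 and 56 barcodes (1.57 and 1.39 times), Sox6 and Sp7 56 and 69 (1.31 and 1.36) and Runx2 and Mef2c 128 and 140 (1.25 and 1.35). As far below it were 2 pairs, both with the tendon factor: Sox6 and Scx shared 15 and 6 barcodes (0.66 and 0.78 times) and Sp7 and Scx 4 and 1 (0.72 and 0.32 times). In 31 of the 36 pairs at least 10 barcodes were expected in each library. Both pairs with Scx fell short of this, with 22.6 and 7.68 barcodes expected for Sox6 and 5.57 and 3.10 for Sp7, and rest on few barcodes.

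When the expectation was also taken within each cluster, Runx2 and Sp7 were at 1.28 and 1.37 times it and 3 pairs exceeded 1.2, of which 2 were among the 4. Within the Col9a1 cluster alone Runx2 and Sp7 were at 1.0 and 1.23 times the expectation, and 0 of the 4 pairs exceeded 1.2 in both libraries. These strata were chosen after the data had been seen.

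The 3 SOX genes were found together in 12.9% (95% exact binomial interval 11.9% to 14%) and 13.3% (12.0% to 14.7%) of Ctrl osteochondral barcodes, and in 21.7% and 16.6% of the Col10a1 cluster. Sox9 and Sox5 shared 1593 and 1428 barcodes, 1.11 and 1.06 times the expectation, and Sox9 and Sox6 659 and 446, 1.2 and 1.1 times. Of the barcodes with Sox6, 82.6% and 87.8% held Sox9. Sox9 and Twist1 shared 764 and 613 barcodes, 0.90 and 0.89 times the expectation.

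Sox9 with Runx2, a pairing seen in chondrocytes on the way to hypertrophy, occurred in 7.77% and 13.4% of Ctrl osteochondral barcodes. This was 1.05 and 1.02 times the expectation, near the median of all pairs. In the Col9a1 cluster the shares were 41.6% (36.4% to 46.8%) and 43.9% (39.2% to 48.6%). They lay close to the shares of that cluster with any Runx2 UMI given above. With Sp7 added, the share in that cluster was 10.8% and 19.7%. Runx2, Sp7 and Dlx5 together were in 14 and 33 Ctrl osteochondral barcodes (0.365% and 1.26%), of which 10 and 30 lay in the Col9a1 cluster. The intervals cover counting error only.

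**Figure D4:**
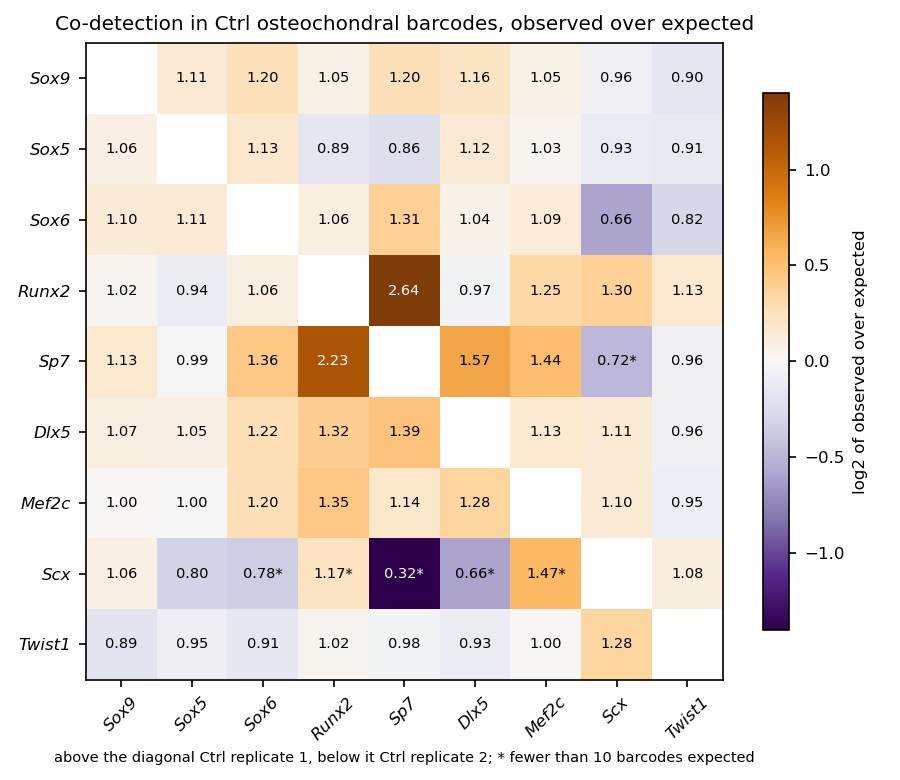
Each cell gives the number of Ctrl osteochondral barcodes with both genes over the number expected from independent detection at like depth, for Ctrl replicate 1 above the diagonal and Ctrl replicate 2 below it, and colour gives its log2. Runx2 with Sp7 (2.64 and 2.23) stands highest in both libraries, and most pairs lie near the median of 1.07 and 1.06.

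In the osteochondral cells left in HLU, no factor passed the edgeR test. Barcodes with the combinations seen in Ctrl were few. The trio of SOX genes was found in 3 of 52 barcodes (5.77%, 1.21% to 15.9%) of HLU replicate 1 and 19 of 146 (13%, 8.02% to 19.6%) of HLU replicate 2. Sox9 with Runx2 was found in 24 of 52 (46.2%) and 15 of 146 (10.3%), and within the Col9a1 cluster in 53.7% (37.4% to 69.3%) and 26.2% (13.9% to 42.0%). In that cluster HLU replicate 1 lay above both Ctrl shares of this pair and HLU replicate 2 below them. The intervals cover counting error within a library only and do not compare the groups. Of the 4 pairs above expectation in Ctrl, Runx2 and Sp7 shared 11 barcodes in HLU replicate 1 and 3 in HLU replicate 2 (1.06 and 1.67 times the expectation), and Runx2 and Mef2c 18 and 5 (1.04 and 0.95 times). Sox6 and Sp7 shared 4 and 1 barcodes (1.63 and 0.63 times) and Sp7 and Dlx5 2 and 2 (0.78 and 3.32 times). No pair of the 4 was above 1.2 times the expectation in both HLU libraries, and most of these values rest on fewer than 5 barcodes.

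UMIs were summed per library over osteochondral barcodes to compare levels within the cells that were left. Of 13216 genes tested, 0 (0% of genes) were called by edgeR, with 2325 at an unadjusted p under 0.05, whereas DESeq2 called 506. Among the 9 factors, 3 had an unadjusted p under 0.05, and 5 were lower in both HLU libraries than in both Ctrl libraries (28.3% of genes were). Their median log2 fold change was -0.68, against -0.02 over all genes. Values in this comparison are CPM after TMM scaling. Neutrophil transcripts made up 0.424% and 0.567% of the UMIs of these barcodes in Ctrl and 1.84% and 1.86% in HLU, with 6 of 6 markers detected in every library, and their part in the differences was not tested.

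Sox9 was at 541 and 771 CPM in Ctrl and 266 and 347 in HLU, with groups that did not overlap (log2 fold change -1.09, SE 0.31, adjusted p = 0.204, DESeq2 adjusted p = 0.0488). Dlx5 was at 25.3 and 24.8 CPM in Ctrl and 17.2 and 9.21 in HLU (log2 fold change -1.01, SE 0.33, adjusted p = 0.229). Twist1 was at 71.2 and 56.2 against 41.4 and 11.4 CPM (log2 fold change -1.37, SE 0.54, adjusted p = 0.280). All 3 lay lower in HLU without passing the edgeR threshold. Without HLU replicate 1, which gave 52 barcodes, the log2 fold changes of Dlx5 and Twist1 were -1.48 and -2.52. Without HLU replicate 2 they were -0.57 and -0.64, and that of Sox5 was -1.45.

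Sox5 was at 177 and 199 CPM in Ctrl and 69.6 and 162 in HLU (log2 fold change -0.68, adjusted p = 0.438), and Scx at 4.92 and 1.93 against 1.01 and 0.542 CPM, the last 2 from 1 UMI each. The other 4 factors had overlapping groups. Runx2 was at 20.4 and 30.6 CPM in Ctrl and at 75.7 and 21.1 in HLU (log2 fold change 0.86, SE 0.58, adjusted p = 0.481), and it turned to -0.30 without HLU replicate 1. Sp7, at 7.36, 12.9, 21.2 and 4.34 CPM, and Mef2c, at 40.1, 35.2, 57.5 and 27.1 CPM, had log2 fold changes of 0.16 and 0.12, which turned to -1.25 and -0.51 without that library. Sox6 was at 33.0, 25.7, 9.08 and 28.7 CPM (log2 fold change -0.53, adjusted p = 0.581).

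Because the mix of osteochondral clusters differed between the groups, the Col9a1 cluster, the one with 41 or more barcodes in every library, was also compared by itself, a choice made after seeing the data. Of 10199 genes tested 0 (0% of genes) were called by edgeR, with 1238 at an unadjusted p under 0.05 and 159 called by DESeq2. With 1 library left out, 2 to 390 genes and 0 of the factors were called. Of the factors 8 could be tested, Scx being too low. All 8 had negative log2 fold changes, 0 of them with an unadjusted p under 0.05, but 3 of the signs turned in alternatives. Sox5 and Mef2c turned to 0.042 and 0.076 when scaled by library totals, Sox5 to 0.18 without HLU replicate 1, Runx2 and Mef2c to 0.081 and 0.35 without HLU replicate 2 and Mef2c to 0.28 without Ctrl replicate 1. Of the 8, 3 lay lower in both HLU libraries (23.8% of genes did). The median of the 8 was -0.69, against 0.00 over all genes. Neutrophil transcripts made up 0.515% and 0.518% of UMIs in Ctrl and 2.37% and 1.70% in HLU.

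In that cluster Sox9 was at 540 and 1166 CPM in Ctrl and 389 and 465 in HLU (log2 fold change -1.0, SE 0.43, adjusted p = 0.416). Sox6 was at 31.0 and 28.2 against 12.0 and 20.6 CPM, and Dlx5 at 27.4 and 33.2 against 19.5 and 14.3 CPM. These 3 were the factors without overlap between groups. Runx2 (65.5, 74.7, 75.1 and 22.2 CPM), Sp7 (28.2, 44.4, 30.035 and 12.7 CPM) and Twist1 (29.9, 38.2, 33.0 and 11.1 CPM) were low in HLU replicate 2 alone. Sox5 (148, 140, 96.1 and 168 CPM) and Mef2c (55.4, 35.9, 58.6 and 28.6 CPM) overlapped throughout, with log2 fold changes of -0.12 and -0.06.

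**Figure D5:**
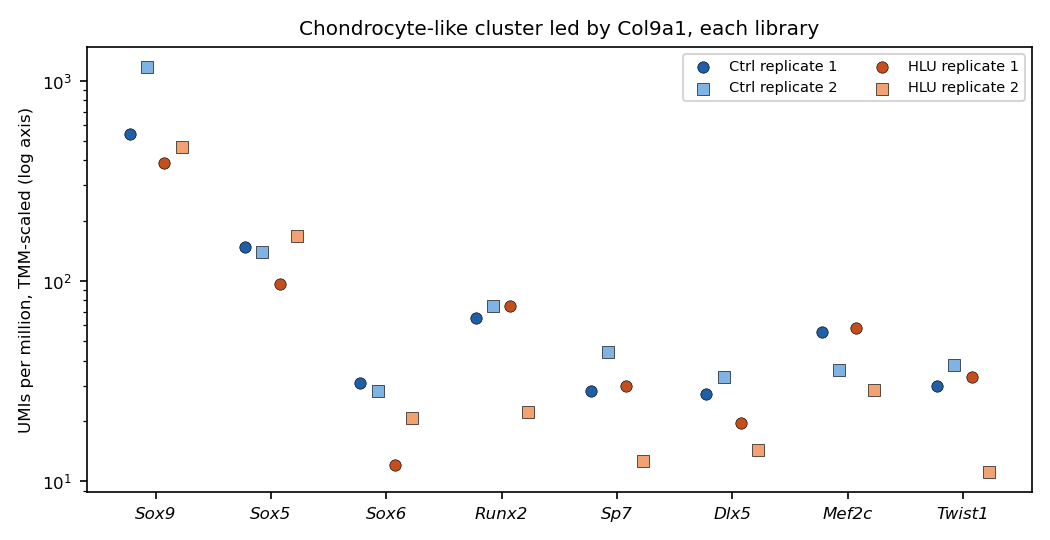
Each point is the TMM-scaled level of 1 transcription factor in the Col9a1 cluster of 1 library, in CPM on a log axis, from 361 and 456 Ctrl (blue) and 41 and 42 HLU (orange) barcodes. Sox9, Sox6 and Dlx5 lie lower in both HLU libraries, while Runx2, Sp7 and Twist1 are low in HLU replicate 2 alone.

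In blood cells, the calls fell on cartilage factors at low levels. Tests were run in 7 classes with at least 20 barcodes per library, and 3 calls fell on the 9 factors. Sox9 in mature neutrophils was at 22.8 and 22.2 CPM in Ctrl and 0.115 and 0.216 in HLU (edgeR adjusted p = 0.00886, beside 1.86% of genes called in that class), and Sox5 there was at 4.77, 4.71, 0 and 0.108 CPM (adjusted p = 0.0315). Sox9 in B cells was at 13.3, 26.1, 0.257 and 0 CPM (adjusted p = 0.0145, 0.851% of genes called), a gene too low to be tested without Ctrl replicate 2. The HLU values rest on at most 2 UMIs each, so no fold change is given. These genes passed the low-count filter through their Ctrl levels alone. In Ctrl mature neutrophils those levels were 4.85% and 3.42% of the osteochondral level for Sox9 and 3.10% and 2.81% for Sox5. These are the same UMIs as in the shares given above, and their source was not tested. No such share is given for B cells. With so few HLU UMIs and a filter passed through Ctrl alone, the calls are not read as changes of these factors in blood cells.

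The other classes gave 0 calls among the 9 factors by edgeR, with 0.471% of genes called in immature neutrophils, 0.416% in megakaryocytes, 0.0472% in monocytes or macrophages, 0% in neutrophil progenitors and 0.516% in T or NK cells. In neutrophil progenitors 363 genes had an unadjusted p under 0.05, and DESeq2 called 117. Runx2 was tested in 6 of the 7 classes and Mef2c likewise in 6. Runx2 in mature neutrophils was at 47.7 and 46.0 CPM in Ctrl and 52.3 and 16.3 in HLU (log2 fold change -0.45, adjusted p = 0.797). This value was -1.52 without HLU replicate 1 and 0.14 without HLU replicate 2, whose mature neutrophils mostly lay in a cluster of their own, as given above. Mef2c in B cells was at 431, 455, 375 and 459 CPM (-0.09, adjusted p = 0.987). Most neutrophil progenitors of HLU replicate 2 (863 of 879) likewise lay in a cluster of their own. In that class Runx2 was at 14.5, 13.6, 18.4 and 7.47 CPM (-0.12, and -0.96 without HLU replicate 1) and Mef2c at 15.4, 17.9, 12.5 and 18.3 CPM. In each of these comparisons the Ctrl and HLU values overlapped.

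Genes known to work with or under these factors were read from lists, by counts and medians. Over all barcodes 17.1% of genes were called lower and the median of all genes was 0.04. In these sums too, fewer cells of a type and less RNA per cell cannot be told apart. Osteochondral barcodes were few in HLU, so the calls cannot show whether targets followed their factors. All 11 targets of the SOX trio were called lower, with a median log2 fold change of -4.59. Among them Comp (3423 and 2374 CPM in Ctrl, 52.5 and 21.8 in HLU), Col2a1, the main cartilage collagen (1535, 1876, 99 and 25.8), Acan, the large cartilage proteoglycan (787, 956, 14 and 21.7), and the link protein gene Hapln1 (317, 367, 9.44 and 6.47) had the most UMIs. Of 12 targets of RUNX2 and SP7, 8 were called lower (median -2.94), among them Spp1, the gene of osteopontin (5517, 5898, 1227 and 340 CPM), the hypertrophic collagen gene Col10a1 (1056, 1162, 15.6 and 13.7), Mmp13, a collagenase (779, 1139, 108 and 102), and Col1a2 (400.1, 339, 48.5 and 17.8). All 6 tendon genes were called lower (median -5.89), among them Fmod (272, 248, 4.54 and 3.41 CPM) and Thbs4 (238, 179, 1.57 and 4.49), and Col14a1 and Tnmd. Of 39 partner transcription factors tested, 24 were called lower (median -3.21). Trps1 (186, 149, 43.1 and 59.6 CPM) and Runx1 (177, 157, 75.9 and 80.6) were among these, while Atf4 (426, 419, 319 and 156) and Id2 (200, 235, 81.5 and 126) did not pass.

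Within osteochondral cells 0 genes of these lists passed the edgeR test, and the medians of the lists differed in sign. The targets of RUNX2 and SP7 had a median of 1.0, with 9 of 12 above 0, beside a median of -0.02 over all genes. The list medians were not taken without HLU replicate 1. Col1a2 was at 611 and 641 CPM in Ctrl and 2233 and 848 in HLU (adjusted p = 0.334). Spp1 was at 8094, 10698, 36563 and 9256 CPM (adjusted p = 0.466), with HLU replicate 2 between the Ctrl values. Mmp13 was at 1187.5, 2137, 2903 and 2238 CPM (adjusted p = 0.667). Col10a1, by contrast, was at 1612, 2197, 700.0 and 684 CPM (log2 fold change -1.73, adjusted p = 0.134). The targets of the SOX trio had a median of -0.21, with 9 of 11 below 0. Acan was at 1200.4, 1807, 684 and 1061 CPM (adjusted p = 0.254) and Col2a1 at 2345, 3559, 4874 and 1281 CPM. Comp was at 5218, 4511, 2492 and 1028 CPM (adjusted p = 0.194) and Hapln1 at 483, 701, 441 and 326 CPM (adjusted p = 0.250). The tendon genes had a median of -1.51, with 6 of 6 below 0, and the partner factors one of -0.35, with 27 of 38 below 0. In the Col9a1 cluster the medians were -0.29 for the targets of RUNX2 and SP7 and -1.20 for those of the SOX trio, again with 0 called. Several of these target genes also served as markers in naming the clusters.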

How the data were processed

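UMI counts per gene and barcode were taken as deposited; the authors made them with Cell Ranger 6.0.0, and Seurat 4.1.0 is also named in the methods. Gene coordinates are from GENCODE M21 (mm10), which held 31011 of the 31053 genes. No column of values was left unused (0 columns).

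Barcodes with 1000 to 40000 UMIs and at most 10% mitochondrial UMIs were kept. Doublets were kept, and 2098 likely ones were removed in an alternative. Libraries were clustered together without integration on 2000 variable genes, the 9 factors left out, with 50 principal components, 20 neighbours and Leiden resolution 1 (scikit-learn 1.9.0, igraph 0.11.9, leidenalg 0.10.2). A cluster was named only where at least 3 of its markers were raised. UMIs were summed per library and cell class, scaled by TMM and tested HLU against Ctrl with the edgeR 4.0.16 quasi-likelihood test over all genes that passed a low-count filter, with Benjamini-Hochberg adjustment. DESeq2 1.42.0, other scalings, filters, resolutions, a marker gate and each library left out were alternatives. The tests were run on counts simulated with a common dispersion for all genes. That check held no library-specific clusters or change in cell mix and does not cover them. Each group had 2 mice with 1 library each, so p-values rest on 2 against 2.

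Genes named beside the 9 factors were, by a written rule, the 4 genes of each list with the most UMIs in Ctrl osteochondral cells, and for each factor the 3 genes with the highest correlation among those of at least 10 CPM in both Ctrl libraries of 1 class. The factors, lists and rules were chosen with earlier results of these data known. The strata within clusters, the Col9a1 cluster alone, the added unnamed skeletal clusters and the detection values without single libraries were added after seeing the data.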

Additional observations from a re-analysis of the deposited data

Results flagged for a closer look

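Runx2 and Mef2c had values that moved apart between blood cell classes, with every HLU library on one side of both Ctrl libraries in one class and on the other side in another. Such non-overlap was common, with 21.5% of genes below and 21.9% above in megakaryocytes, 19.1% below in monocytes or macrophages and 18.9% above in T or NK cells. The difference between the classes was not tested, and 0 of the single comparisons passed the edgeR test. Runx2 in T or NK cells was at 4.08 and 19.5 CPM in Ctrl and 55.7 and 33.6 in HLU (log2 fold change 1.62, adjusted p = 0.711). In megakaryocytes it was at 88.6 and 52.6 CPM in Ctrl and 29.1 and 29.6 in HLU (-1.22, adjusted p = 0.339). In monocytes or macrophages it was at 23.9, 31.6, 21.5 and 5.03 CPM (-1.10, adjusted p = 0.799). Mef2c in megakaryocytes was at 403 and 444 CPM in Ctrl and 684 and 862 in HLU (0.87, adjusted p = 0.342), and in monocytes or macrophages at 32.9, 54.0, 32.1 and 22.1 CPM (-0.69, adjusted p = 0.799). Single libraries decided several of these values. Effect sizes alone are given where 1 group was left with 1 library. Without HLU replicate 1, Runx2 in monocytes or macrophages was -2.49, Mef2c there -1.01 and Mef2c in megakaryocytes 1.0. Without HLU replicate 2, Runx2 in monocytes or macrophages was -0.39, Mef2c there -0.46 and Runx2 in T or NK cells 1.94. Without Ctrl replicate 2, Runx2 in T or NK cells was 3.34 and Mef2c in monocytes or macrophages -0.28. Of the 1543 monocytes or macrophages of HLU replicate 2, 1344 lay in a cluster led by Marco. That cluster held 4, 23 and 9 barcodes of Ctrl replicates 1 and 2 and HLU replicate 1. In this class, leaving out HLU replicate 1 thus sets Ctrl against cells of other clusters.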

How the results depend on the processing

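Over all barcodes 3568 genes were called, 3428 with a replicate block, and between 848 and 7726 with 1 library left out (lowest without Ctrl replicate 1, highest without HLU replicate 1). Runx2 then ranged from -1.06 to 0.40 and Mef2c from -0.10 to 0.58, and no value that turned sign passed the test. In osteochondral cells 0 genes and 0 factors were called, against 506 and 1 by DESeq2, 1444 and 3 without a low-count filter, 115 and 0 with the block, and 0 to 1569 genes and 0 to 2 factors with 1 library left out (1569 and 2 without HLU replicate 1, 363 and 1 without HLU replicate 2). Runx2 there ranged from -0.30 to 1.55, Sp7 from -1.25 to 1.05 and Mef2c from -0.51 to 0.59, with -0.52, -0.76 and -0.059 in the Col9a1 cluster alone and -0.60 for Sp7 and -0.39 for Mef2c at resolution 2. The cause was not tested. In blood cells 3 calls became 7 by DESeq2, 11 without a filter, 6 with the block and 1 to 13 with 1 library left out (lowest without Ctrl replicate 2, highest without HLU replicate 1). The blood cell calls by DESeq2 and with the block all fell on Sox9 and Sox5, and those without a filter on these genes and Twist1. The calls with 1 library left out also fell on Runx2 and Mef2c. Without HLU replicate 1 the log2 fold change of Runx2 was -1.52 in mature neutrophils and -2.49 in monocytes or macrophages. That of Mef2c was then -1.01 in monocytes or macrophages and 1.0 in megakaryocytes. Without HLU replicate 2, Runx2 in T or NK cells was at 1.94. Each of these values rests on 1 HLU library. The shares of all genes called in these blood cell fits are not given here. Larger counts of such calls are therefore not read as more evidence of changes in blood cells. The mean number of factors per Ctrl osteochondral barcode (2.42) was 1.06 after thinning and 3.36 in the Col9a1 cluster. The 4 co-detected pairs became 9 after thinning and 7 to 10 with 1 Ctrl library. After thinning only 16 of the 36 pairs had at least 10 barcodes expected, against 31 before. With 1 Ctrl library a pair had to exceed 1.2 times the expectation in that library alone. Same-numbered libraries did not deviate together (correlation of deviations -0.051 over all barcodes and -0.047 in osteochondral cells, from 2 pairs), so the numbers were taken as no pairing. Scaling by library totals moved the median of all genes in osteochondral cells from -0.02 to 0.24. A group left with 1 library was assumed to vary like the others, so counts from such fits do not measure that group's spread.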
